A study of Mus musculus with 4 samples.

Results

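The 8 cytotoxic granule genes Gzma, Gzmb, Gzmk, Gzmm, Prf1, Nkg7, Fasl and Serpinb9 were examined for E2A binding in thymocytes that lacked Id2 and Id3. They were chosen by name, and are 8 of the 22350 protein-coding genes of the mouse annotation. A peak was given to a gene when its midpoint lay in the gene body or within 50 kb of it. By this rule the 8 genes held 7 of the 17532 peaks of DP cells and 2 of the 1516 peaks of iNKT cells. In DP cells E2A peaks covered the promoters of Gzma and Prf1, and others lay within 50 kb of Gzmk, Gzmm and Fasl. The peak given to Gzmm was 49.2 kb past the gene end, in an intron of Polrmt. These were 5 of the 8 genes, where 54.0% of all protein-coding genes had a DP peak by this rule. In iNKT cells E2A peaks covered the promoter of Gzma and a site downstream of Fasl. These were 2 of the 8 genes, where 10.4% of all genes had an iNKT peak. No peak was listed near Gzmb, Nkg7 or Serpinb9 in either cell type.

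E2A was measured by ChIP-Seq, in which DNA crosslinked to a protein is precipitated with an antibody and sequenced. The cells came from the thymus of L-DKO mice, Id2f/f Id3f/f LckCre+, aged 3 to 5 weeks, on a C57BL/6 background or as hybrids of C57BL/6 and 129. The L-DKO DP cells were sorted as CD1dTet- CD4+ CD8+ and the L-DKO iNKT cells as CD1dTet+ TCRβ+, each from a pool of 3 to 4 mice. For each of the 2 cell types a single E2A library was sequenced beside a single input library. Both groups carried the same deletion of Id2 and Id3, by a Cre driven from the Lck promoter in the T lineage, and no wild type peak list was used here. The study compared DP cells, which precede selection by CD1d, with the iNKT cells that follow it.

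The deposited lists give a position and a MACS score for each peak, which is 10 times the negative log10 of its p-value, and hold no expression values, so that neither the sort nor the loss of Id2 and Id3 could be checked against marker genes. Depth is unknown and there was no replicate, so no test between cell types was possible. Scores were ranked within a list and not compared between lists as amounts. DP peaks had a median score of 141 and iNKT peaks one of 79.6, and the lowest was 50 in both. An overlap of at least 1 bp with the other list was found for 5.99% of all DP peaks and for 69.3% of all iNKT peaks. All intervals are 95% Wilson intervals and cover counting error only. Those for genes treat each gene as independent, and are too narrow where the stretches around neighbouring genes overlap.

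E2A is a basic helix-loop-helix transcription factor that binds as a dimer to E-boxes, sites of the form CANNTG. Id proteins lack a DNA-binding domain and hold E proteins such as E2A in dimers that cannot bind DNA. Cytotoxic lymphocytes kill through granules in which perforin opens the way for granzymes, a family of serine proteases, or through Fas ligand, which engages the death receptor Fas on the target. iNKT cells are innate-like T cells that recognise lipids on CD1d and can carry granzymes and perforin, whereas DP thymocytes are not cytotoxic cells.

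The bases that precede 4 of the transcription start sites are shown first, because 2 of these promoters lay under a DP peak and 2 did not. Each is written 5′ to 3′ in the direction of the gene and ends at the base before the start site, from the mm9 reference. Capitals mark CAGGTG, an E-box core bound by E2A, or CAGCTG, a palindromic E-box. CAGGTG reads CACCTG on the opposite strand.
Gzma, chr13:113891188-113891387, minus strand: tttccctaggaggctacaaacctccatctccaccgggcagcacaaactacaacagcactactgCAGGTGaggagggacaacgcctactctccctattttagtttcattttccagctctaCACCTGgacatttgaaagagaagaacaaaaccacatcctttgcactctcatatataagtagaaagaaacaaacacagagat
Prf1, chr10:60760384-60760583, plus strand: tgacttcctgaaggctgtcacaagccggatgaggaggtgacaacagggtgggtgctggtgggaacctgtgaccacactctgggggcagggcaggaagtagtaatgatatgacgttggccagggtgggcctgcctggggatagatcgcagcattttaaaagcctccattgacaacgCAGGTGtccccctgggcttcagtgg
Gzmb, chr14:56881098-56881297, minus strand: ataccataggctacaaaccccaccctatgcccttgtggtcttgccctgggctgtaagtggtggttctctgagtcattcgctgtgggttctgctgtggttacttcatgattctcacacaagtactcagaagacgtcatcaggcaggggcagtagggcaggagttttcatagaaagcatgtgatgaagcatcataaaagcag
Nkg7, chr7:50692243-50692442, plus strand: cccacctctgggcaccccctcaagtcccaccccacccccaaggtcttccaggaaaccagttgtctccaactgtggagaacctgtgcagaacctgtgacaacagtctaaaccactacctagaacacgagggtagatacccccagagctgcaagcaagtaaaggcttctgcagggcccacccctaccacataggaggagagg

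These sequences showed 2 CAGGTG cores before Gzma in opposite orientations, 1 before Prf1, and none before Gzmb or Nkg7. Over 300 bp before the start site, Gzma and Prf1 were the only ones of the 8 genes with CAGGTG, which 20.3% of all protein-coding promoters held over the same length. CAGCTG occurred in this stretch before Prf1 and Serpinb9, against 13.7% of all promoters. The general form CANNTG was found before 6 of the 8 genes, against 70.4% of all promoters, with 3 sites each at Gzmb and Nkg7 and none at Gzmk and Gzmm. Genes with CAGGTG in these 300 bp numbered 4534, and 15.3% of them had a DP peak within 1 kb of the start site. Among the 17816 genes without it the share was 10.7%. A match of letters describes the sequence and is not by itself a binding site.

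A DP peak lay in the body or within 50 kb of 5 of the 8 genes (62.5%, interval 30.6 to 86.3%), where 54.0% of all protein-coding genes had one. An iNKT peak lay there for 2 of 8 (interval 7.15 to 59.1%), where 10.4% of all genes had one. The 2 genes with an iNKT peak, Gzma and Fasl, also had a DP peak, and 9.13% of all genes had a peak of both lists. Within 1 kb of the start site, 2 of the 8 genes had a DP peak, against 11.6% of all genes, and 1 had an iNKT peak, against 0.434%. That gene was Gzma, which had both, as did 0.362% of all genes. The interval for each of these counts at 8 genes is wide, from 2.24 to 47.1% for the 1 gene with an iNKT promoter peak. The peaks of Gzma were known when the 8 genes were chosen, so that its place in the list is not independent of these data. The median body of the 8 genes was 6791.5 bp, and that of all protein-coding genes 15427.5 bp. Of the 7 DP peaks 1 overlapped an iNKT peak (14.3%, interval 2.57 to 51.3%), against 5.99% of the whole list. At Gzma 1 of the 2 iNKT peaks was the other side of this overlap, against 69.3% of the whole iNKT list. The lists differ in length, and when the DP list was limited to its 1516 highest peaks, none of its peaks was left at the 8 genes, where 10.8% of all genes still had one.

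**Figure D1:**
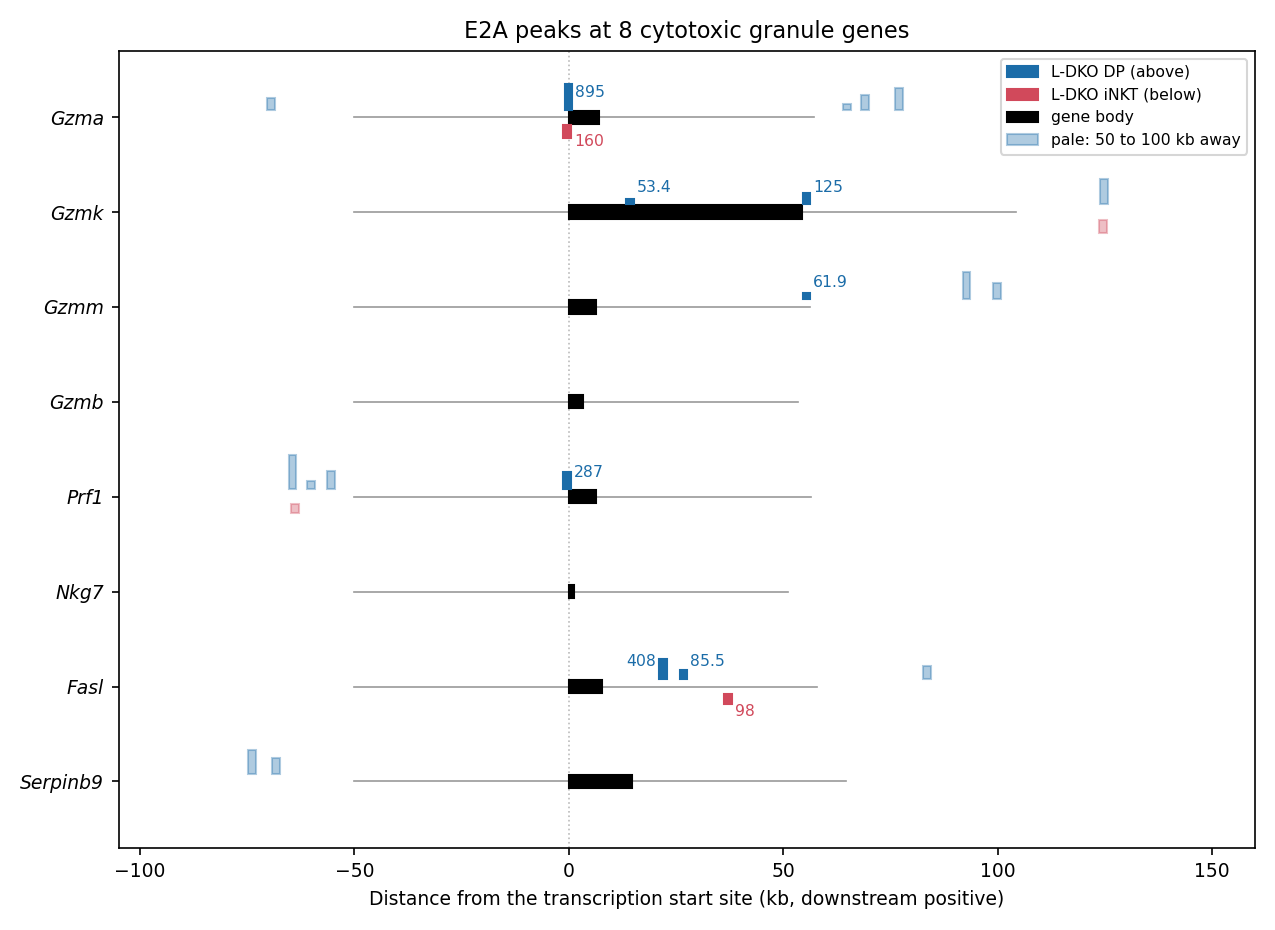
Positions of E2A peaks at the 8 genes, drawn from each transcription start site in kb with downstream to the right. The black bar is the gene body, the grey line the body with 50 kb on each side, blue boxes above it DP peaks and red boxes below it iNKT peaks, with their scores, and the height of a box grows with the logarithm of its score. Pale boxes are peaks 50 to 100 kb from the body. Gzma alone has a box of both colours at its start site, Fasl has all 3 of its nearer peaks downstream, and Gzmb and Nkg7 have no box.

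Gzma encodes granzyme A, a tryptase of the granules. The gene (ENSMUSG00000023132.6) lies on the minus strand at chr13:113884033-113891187 and shares its window with Cdc20b, Gm9848 and Gpx8. Its DP peak, chr13:113890697-113891811, was 1115 bp wide and had a score of 895. It ranked 1899 in the DP list, above 89.2% of the peaks. Its midpoint lay 67 bp upstream of the start site, which the peak covered. Among the 2397 DP peaks whose midpoint lay within 1 kb of a start site, whose median score was 105, it ranked 113.

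The iNKT peak at Gzma, chr13:113890693-113892395, was 1703 bp wide and had a score of 160. It ranked 285 of 1516, above 81.2% of the iNKT list, and 18 among the 89 iNKT promoter peaks, whose median score was 89.2. Its midpoint was 357 bp upstream of the start site. All 1115 bp of the DP peak lay within the iNKT peak, and these were 65.5% of the iNKT peak. The iNKT peak reached 4 bp further downstream and 584 bp further upstream, which set the midpoints 290 bp apart. The Gzma promoter thus ranked high in both lists, and its iNKT interval was drawn out on the upstream side.

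The 2 CAGGTG cores of the Gzma promoter were centred 78.5 and 134.5 bp upstream of the start site, 56 bp from start to start. They were 11.5 and 67.5 bp from the midpoint of the DP peak and 278.5 and 222.5 bp from that of the iNKT peak. The iNKT peak held another CAGGTG 1113.5 bp upstream of the start site, outside the DP peak. Neither peak at Gzma held CAGCTG. No other peak of either list had its midpoint within 50 kb of Gzma. Of the DP peaks 50 to 100 kb away, those with scores of 55.4, 189 and 496 lay between 57.8 and 69.8 kb beyond its end, nearest to the start site of Cdc20b, and one with a score of 125 lay 69.5 kb upstream, past the end of Gzmk.

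Gzmk encodes granzyme K, also a tryptase, and lies beside Gzma on the same strand. The annotation gives the gene (ENSMUSG00000042385.8) as chr13:113961816-114016116 from its long transcript Gzmk-002, while the start site of Gzmk-001 is at 113971105. Of its 2 DP peaks, the one with the higher score, chr13:113960213-113961124, had a score of 125 and ranked 9455, above 46.1% of the DP list. It was intergenic, 1.15 kb past the end of the gene. With the outermost start site taken for each gene, the nearest was that of Esm1, at 39.2 kb. From the start site of Gzmk-002 the peak was 55.4 kb downstream, and from that of Gzmk-001 10.4 kb. It held 3 CAGGTG cores, of which a pair in the same orientation stood 44 bp apart, and none within 100 bp of the midpoint. The pair is shown with the bases around it.
Gzmk, DP peak past the gene end, chr13:113960357-113960442, minus strand: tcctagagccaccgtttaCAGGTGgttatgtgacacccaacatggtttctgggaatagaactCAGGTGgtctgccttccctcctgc

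The other DP peak of Gzmk, chr13:114001539-114002010, had a score of 53.4, close to the lowest in the list, and ranked 16782, above 4.26% of the peaks. It lay in an intron of Gzmk-002, 14.3 kb downstream of that start site, and 30.7 kb upstream of the start site of Gzmk-001. It also lay in an intron of Esm1, whose start site was 1.91 kb away and was the nearest to it. Neither of these peaks overlapped an iNKT peak, and the nearest iNKT peak to Gzmk was that of the Gzma promoter, 70.3 kb from the gene body. The position of the peaks relative to Gzmk therefore depended on the transcript, and their presence within 50 kb did not.

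Gzmm, granzyme M, (ENSMUSG00000054206.2, chr10:79151765-79158006, plus strand) is a granzyme of another gene cluster. It had 1 DP peak, chr10:79206864-79207497, with a score of 61.9, which ranked 15148, above 13.6% of the list. The midpoint was 49.2 kb past the gene end, just inside the window, in an intron of Polrmt, whose start site was 2.15 kb away. The window of Gzmm held 7 other coding genes, of which Polrmt had the start site nearest to the peak. No iNKT peak lay within 1219 kb of Gzmm. The 200 bp at the midpoint of the DP peak are shown because they hold a close pair of CAGGTG cores on opposite strands, 15 bp from start to start, 12 and 3 bp from the midpoint.
Gzmm window, DP peak in Polrmt, chr10:79207081-79207280, plus strand: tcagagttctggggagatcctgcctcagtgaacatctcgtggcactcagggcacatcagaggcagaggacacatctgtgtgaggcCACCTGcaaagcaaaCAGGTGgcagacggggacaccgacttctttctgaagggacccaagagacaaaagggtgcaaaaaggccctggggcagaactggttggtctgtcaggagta

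Gzmb encodes granzyme B, the granzyme that cleaves caspases in target cells. The gene (ENSMUSG00000015437.4, chr14:56877693-56881097, minus strand) had no peak of either list within 50 kb. The nearest DP peak, with a score of 118, was 298 kb from the gene body and nearest to Cenpj, and 19.6% of all protein-coding genes were farther from a DP peak. The nearest iNKT peak, with a score of 798 and rank 23, was 534 kb away and nearest to Rabggta, where 47.9% of genes were farther from an iNKT peak. Because reads without a single best position were discarded, the share of 31-base words found once in the assembly was computed for each gene. It was 73.7% over the window of Gzmb, the lowest of the 8, and 86.1 to 94.8% over the windows of the others. Within 500 bp of the Gzmb start site it was 100%, as at Prf1, Nkg7, Gzmm and Fasl. The part of discarded reads in the lack of a peak was not tested. The window of Gzmb held 77 copies of CAGGTG, none of which could lie in a peak because the window had no peak.

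Prf1 encodes perforin, the pore-forming protein through which granzymes reach the target cell. The gene (ENSMUSG00000037202.5) lies on the plus strand at chr10:60760584-60767011. Its DP peak, chr10:60759576-60760845, was 1270 bp wide, covered the start site and had its midpoint 373.5 bp upstream. The score of 287 ranked 5280, above 69.9% of the DP list, and 440 among the 2397 DP promoter peaks. The iNKT list had no peak at this promoter, and its nearest peak began 61.7 kb away from the DP peak. The single CAGGTG of the DP peak was centred 22.5 bp upstream of the start site and 351 bp from the midpoint, and CAGCTG stood 201.5 and 584.5 bp upstream. The 2 promoter peaks of DP cells thus differed in where the core lay, close to the midpoint at Gzma and towards the downstream end at Prf1.

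Just outside the window of Prf1, in an intron of Adamts14, lay one of the DP peaks with the highest scores. This peak, chr10:60694105-60698177, was 64.4 kb upstream of the Prf1 start site and had a score of 3100. It was 1 of 258 DP peaks tied at that score, above which stood 26 others. It overlapped an iNKT peak, chr10:60695426-60697866, with a score of 91.1 and rank 632. The nearest start site was that of Adamts14, at 40.0 kb from the DP midpoint. Between it and Prf1, 55.4 kb upstream of Prf1, lay a DP peak with a score of 310, and another of a lower score lay 60.2 kb upstream. None of these 4 peaks counts towards the 8 genes under the limit of 50 kb, and which gene they act on was not measured.

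Nkg7, a membrane protein of the granules, (ENSMUSG00000004612.7, chr7:50692443-50693616, plus strand) had the shortest body of the 8 genes, 1174 bp, and no peak within 50 kb. The nearest DP peak was 808 kb away, and 8.16% of all protein-coding genes were farther from one. The nearest iNKT peak, with a score of 58.5, was 350 kb away. For comparison, the median gene was 38.8 kb from a DP peak and 497 kb from an iNKT peak. Nkg7 was the only one of the 8 genes with its nearest iNKT peak closer than its nearest DP peak. Its window held 6 other coding genes and 102 copies of CAGGTG, and 94.7% of its 31-base words occurred once.

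Fasl encodes Fas ligand, the death ligand of cytotoxic T cells. The gene (ENSMUSG00000000817.8, chr1:163710820-163718626, minus strand) had 2 DP peaks and 1 iNKT peak, all intergenic and all downstream of the gene, and Fasl was the nearest protein-coding start site for each. The DP peak chr1:163695806-163697583, 1778 bp wide, had a score of 408 and ranked 4009, above 77.1% of the list, with its midpoint 21.9 kb downstream of the start site. The DP peak chr1:163691527-163692241 had a score of 85.5 and ranked 12179, above 30.5%, at 26.7 kb. The iNKT peak chr1:163680942-163682000 had a score of 98.0 and ranked 566, above 62.7% of the iNKT list, at 37.2 kb. It overlapped no DP peak, and 9.53 kb separated it from the nearer of the DP peaks. It was thus among the 30.7% of iNKT peaks without a DP counterpart, and the peaks of the 2 cell types lay at different places in the same stretch downstream of Fasl.

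At Fasl the sequences are shown for the pair of palindromic E-boxes in the higher DP peak, 26 bp apart, and for the midpoint of the iNKT peak.
Fasl, DP peak, chr1:163697067-163697134, minus strand: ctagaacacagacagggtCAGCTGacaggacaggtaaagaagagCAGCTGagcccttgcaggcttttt
Fasl, iNKT peak, chr1:163681372-163681571, minus strand: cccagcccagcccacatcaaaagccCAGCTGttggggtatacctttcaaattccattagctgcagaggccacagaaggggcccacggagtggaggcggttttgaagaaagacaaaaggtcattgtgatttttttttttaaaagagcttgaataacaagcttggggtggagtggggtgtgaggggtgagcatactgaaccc

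The pair in the DP peak was centred 393 and 419 bp from its midpoint, and its 2 CAGGTG cores at 417 and 818 bp. The 200 bp at the midpoint of this peak held a long simple repeat and no CANNTG, the only one of the 9 peaks for which this was so. The lower DP peak had CAGCTG 16.5 bp and CAGGTG 255.5 bp from its midpoint. In the iNKT peak CAGCTG stood 72.5 bp and CAGGTG 453.5 bp from the midpoint. All 3 peaks at Fasl thus held both cores, with CAGCTG the nearer of them to the midpoint in each. In the higher DP peak this order rests on 393 against 417 bp. Over their whole length, 79.0% of all DP peaks and 80.9% of all iNKT peaks held CAGGTG. For CAGCTG these shares were 63.4 and 61.0%, and the share with both cores was not computed.

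Serpinb9 encodes an inhibitor of granzyme B that protects the killer cell from its own granules. The gene (ENSMUSG00000045827.4, chr13:33095119-33109826, plus strand) had no peak within 50 kb. The nearest DP peaks were 68.3 and 73.9 kb upstream, with scores of 247 and 675, on the far side of its neighbour Serpinb6b. Of all protein-coding genes, 41.0% were farther from a DP peak. The nearest iNKT peak was 1102 kb away, and 28.3% of all genes were farther from one. The granzyme that this protein inhibits, Gzmb, was likewise without a peak in its window. Among all protein-coding genes, 54.0% had a DP peak and 10.4% an iNKT peak in such a window, so that lacking one is common.

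**Figure D2:**
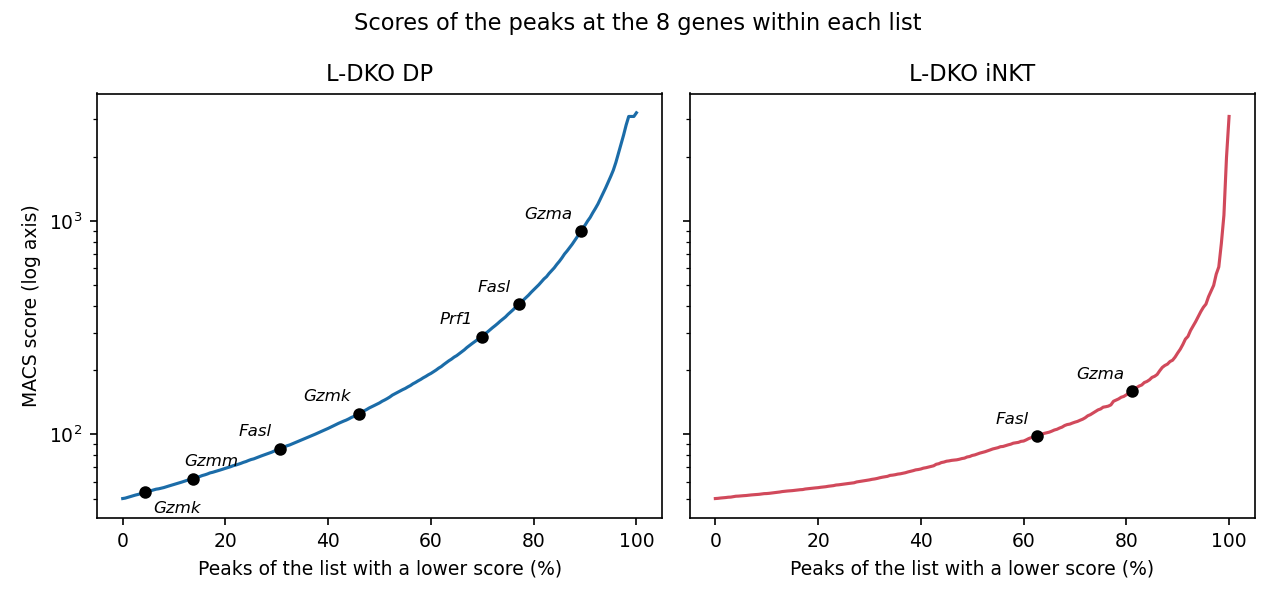
Each peak at the 8 genes, as a black point, on the curve of all scores of its list, with the MACS score on a log axis against the percentage of the list with a lower score, for L-DKO DP cells (left) and L-DKO iNKT cells (right). The DP points run from 4.26% for a Gzmk peak to 89.2% for Gzma, and the 2 iNKT points stand at 62.7% for Fasl and 81.2% for Gzma. Scores were not compared between the panels.

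Ordered by score, the DP peaks were those of Gzma, Fasl, Prf1, Gzmk, Fasl, Gzmm and Gzmk. The first 3, at 895, 408 and 287, were above the list median of 141, and the other 4, from 125 down to 53.4, were below it. The 2 promoter peaks were thus among the 3 highest. Both iNKT peaks, at 160 and 98.0, were above the iNKT median. With 1 library per cell type no error can be given for a score, and the order of neighbours in this list was not tested.

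E-box content was compared with that of the whole lists in 200 bp at each midpoint, on both strands. CAGGTG occurred there in 2 of the 7 DP peaks, those of Gzma and Gzmm, against 43.9% of all DP peaks, and in neither of the 2 iNKT peaks, against 52.9%. Over the 9 peaks, of which the 2 at Gzma overlap and are not separate sites, this was 22.2%. Searched over their whole length, all 9 peaks held CAGGTG, as did 79.0% of all DP peaks and 80.9% of all iNKT peaks. Over the same length 6 of the 9 held CAGCTG, as did 63.4% of all DP peaks and 61.0% of all iNKT peaks. The palindromic core occurred within the 200 bp in 2 of 7 DP peaks, against 29.0%, and in 1 of 2 iNKT peaks, against 30.6%. The general form CANNTG, which includes both cores, occurred in 6 of 7 and 2 of 2, against 83.6% and 85.1%.

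**Figure D3:**
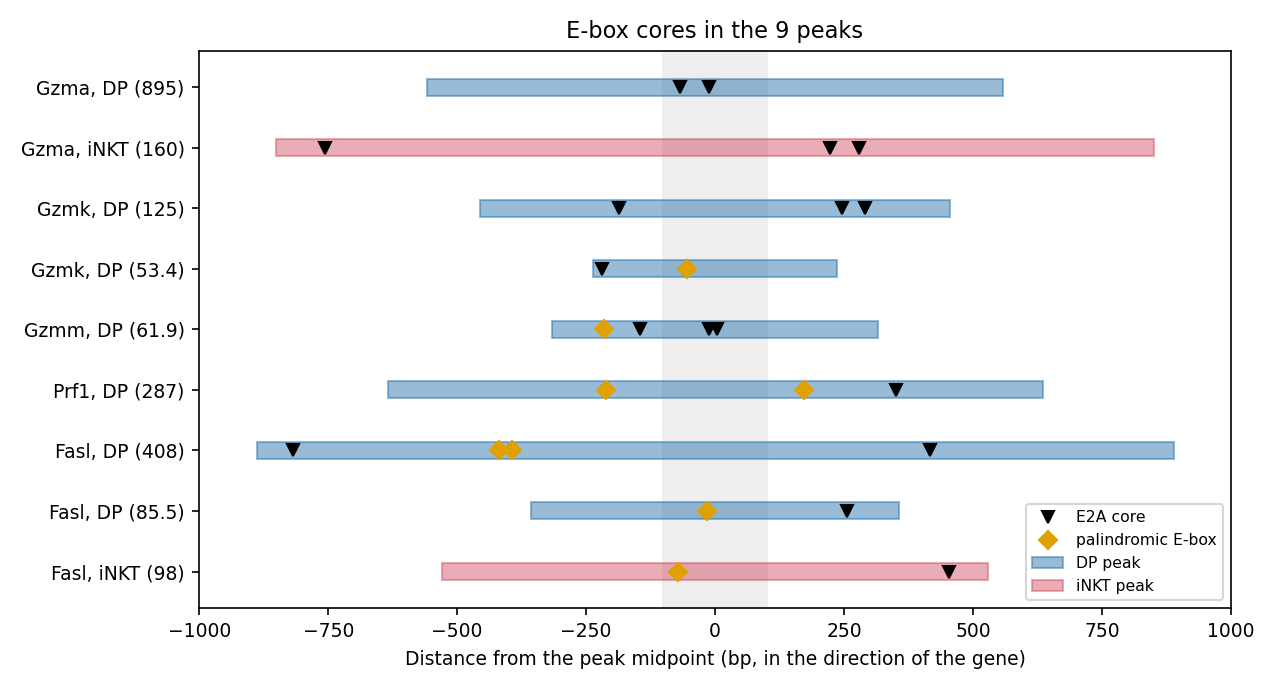
E-box cores along the 9 peaks, aligned at the midpoint and drawn in the direction of the gene in bp, with the peak's score in brackets. Blue bars are DP peaks and red bars iNKT peaks, triangles mark CAGGTG, diamonds mark CAGCTG, and the grey band is the central 200 bp. Triangles fall in the band only in the DP peaks of Gzma and Gzmm, and every peak holds at least 1 triangle.

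Short cores of other thymocyte factors were searched in the same way. ACCACA, bound by Runx proteins, was in 2 of 7 DP peaks, against 23.8% of all DP peaks, namely that of the Gzma promoter and the intronic peak of Gzmk, and in 0 of 2 iNKT peaks, against 25.3%. TCAAAG, bound by Tcf7 and Lef1, was in 1 of 7 DP peaks, past the end of Gzmk, against 17.4%, and in 1 of 2 iNKT peaks, at Gzma, against 19.1%. TTATCT, bound by Gata factors, was in none of the 9, against 8.89 and 13.6%. Among 9 peaks these counts have little precision.

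The windows of the 8 genes together held 750 copies of CAGGTG in 871848 bp, or 8.60 per 10 kb, where the bases that the windows of Gzma and Gzmk share were counted once. DP peaks covered 13 of these copies, or 1.73%, and iNKT peaks covered 4, or 0.533%. Over chromosomes 1 to 19 and X, 1.85% of 1742444 copies lay in a DP peak and 0.213% in an iNKT peak. By gene, the number of copies ran from 55 at Gzma to 184 at Gzmm. Gzma had the fewest copies and the highest peak, and 3 of its 55 copies were covered in iNKT cells. Prf1 had 1 of 100 covered, in DP cells. Serpinb9, with no peak in its window, necessarily had none of 66.

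To place the 8 genes within the wider machinery of cytolysis, a list of 31 further genes was examined, of which 30 were matched in the annotation (Vamp7 was not). A DP peak lay in the body or within 50 kb of 20 of the 30 (66.7%, interval 48.8 to 80.8%), beside the background of 54.0%, and an iNKT peak at 7 of them (23.3%, interval 11.8 to 40.9%), beside 10.4%. The count of 7 fell to 2 within 10 kb and to 3 at a minimum score of 100, beside 4.63 and 4.47% of all genes. They held 71 DP and 8 iNKT peaks, and all 8 of the iNKT peaks shared bases with a DP peak, where 69.3% of the whole iNKT list did. Within 1 kb of a start site there was a DP peak at 10 of the 30, against 11.6% of all protein-coding genes, and an iNKT peak at 0 of the 30, against 0.434%, a share at which none would be the usual count in a list of this length.

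By role, 5 of 12 other granule proteins had a DP peak (interval 19.3 to 68.0%) and 2 an iNKT peak (interval 4.70 to 44.8%), beside 54.0 and 10.4% of all genes. The granzymes Gzmc, Gzmd, Gzme, Gzmf, Gzmg and Gzmn, which lie in the same cluster as Gzmb, had no peak of either list. The windows of neighbours in this cluster overlap, so these genes are not independent and the intervals for this role are too narrow. Among the granule proteins outside the cluster only Lamp2 lacked a DP peak. The low DP share of this role therefore rests largely on a single locus. Lamp1, a glycoprotein of the granule membrane, had the highest DP score of the wider list, 2263, and the iNKT peak that overlapped it scored 102 and ranked 539. This site lay 54.8 kb from the Lamp1 start site and 13.3 kb from that of Grtp1, the nearest. Ctsw, a cathepsin of cytotoxic cells, had a DP promoter peak with a score of 85.5 and an iNKT peak of 99.5 at 37.8 kb downstream, which overlapped a DP peak of 331 and was nearest to AI837181.

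Of the 9 genes of granule transport and release, 8 had a DP peak (interval 56.5 to 98.0%) and 3 an iNKT peak (interval 12.1 to 64.6%), beside 54.0 and 10.4% of all genes. Sytl2, which tethers vesicles through Rab27a, had a peak 7.06 kb upstream of its start site in both lists, with a score of 1572 in DP cells and of 231, rank 160, in iNKT cells. This was the highest iNKT score of the wider list. Lyst, which regulates the size of lysosome-related granules, had 2 iNKT peaks, with a score of 208 at 31.2 kb upstream and of 52.1 at 25.7 kb upstream, over DP peaks of 1485 and 1687. Rab27a, the small GTPase of granule docking, had an intronic iNKT peak of 54.3 over a DP peak of 405. This iNKT peak lay 44.3 kb downstream of the Rab27a start site and 12.6 kb from that of 2410004A20Rik, the nearest. Unc13d, which primes granules for fusion, had a DP score of 1236, from a peak 0.188 kb from the start site of Galk1, and no iNKT peak.

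All 6 genes of the death receptor pathway had a DP peak (interval 61.0 to 100%), and 2 had an iNKT peak (interval 9.68 to 70.0%), beside 54.0 and 10.4% of all genes. Bid, which links death receptors to mitochondria, had a DP score of up to 1847, and its iNKT peak of 74.8 lay 13.9 kb upstream over a DP peak of 1835. Fadd, the adaptor of Fas, had an iNKT peak of 70.9 at 28.4 kb downstream, which was 0.332 kb from the start site of Ppfia1 and overlapped a DP peak of 244. Of the 3 inhibitors, Serpinb6b had DP peaks, the same 2 that lay upstream of Serpinb9, and none of the 3 had an iNKT peak. Ordered by their highest DP peak, the first 5 genes of the wider list were Lamp1, Bid, Lyst, Sytl2 and Unc13d. These peaks all scored above the 895 of Gzma, as did that of Srgn, at 964, which is named after its value was seen. None of those 5 peaks was the promoter peak of the gene it was given to.

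**Figure D4:**
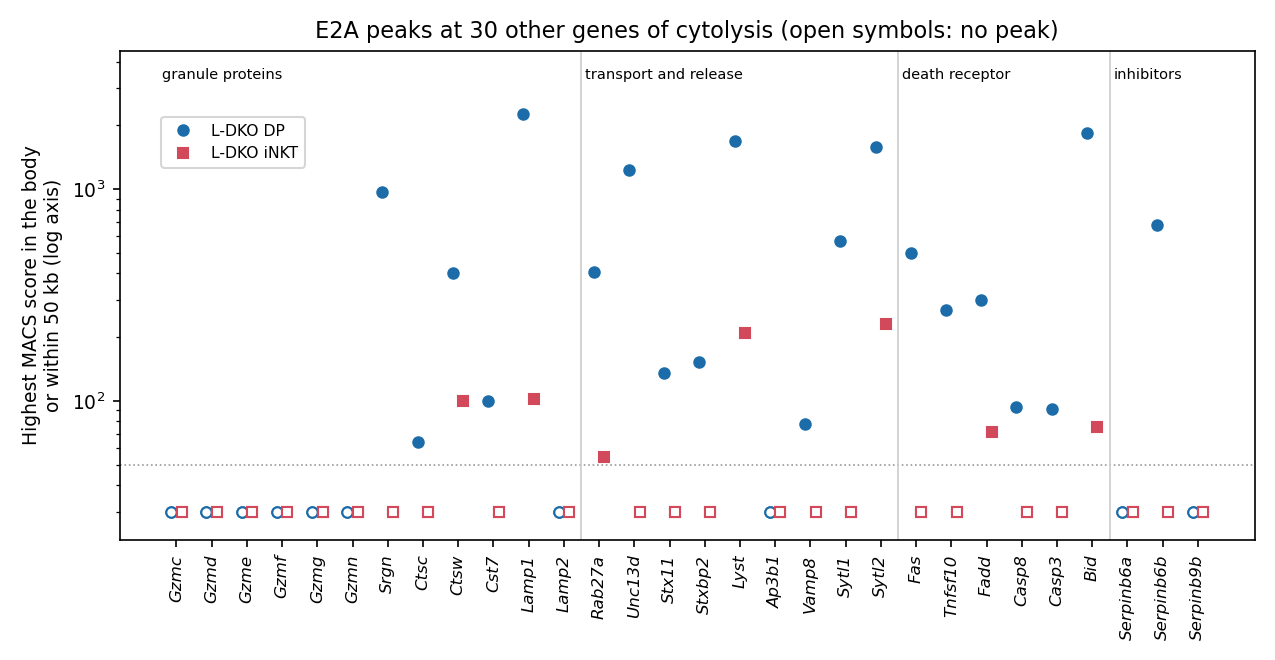
The highest MACS score in the body or within 50 kb of each of the 30 further genes, on a log axis, by role, with blue circles for L-DKO DP cells and red squares for L-DKO iNKT cells. Open symbols below the dotted line, the lowest score of 50, are genes with no peak. Filled red squares stand at 7 genes, and the 6 granzymes at the left have open symbols only.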

How the data were processed

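E2A ChIP-Seq libraries, precipitated with the V-18 antibody, and input libraries were made from DP and iNKT thymocytes of L-DKO mice after fixation with EGS and formaldehyde. The study's methods give Bowtie 1.1.2 on mm9 as the aligner, with only uniquely best alignments retained, and MACS 1.4.2 with its defaults as the peak caller. In the deposited lists each peak has coordinates and the MACS score set by the authors, which is 10 times −log10 of its p-value. The names of the lists give them as E2A against input. The lists hold no read counts, so depth is unknown, and the input libraries were not analysed here. Discarding reads with several positions thins peaks in repeated sequence.

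Genes were taken from GENCODE release M1 on the same assembly (NCBIM37), and bases from its reference genome. A gene spans all its transcripts, and its start site is the outermost 5′ end. Peaks were placed by their midpoint, and ranked by score within a list. Peaks of both lists that shared 1 bp or more counted as overlapping. The 200 bp around each midpoint were scanned for motifs in both orientations. Shares carry Wilson intervals of 95%. With 1 library per cell type there was no test. The samples have replicate number 1 only. The 8 genes, the wider list and the named genes were chosen with earlier results of these data known. Of the wider list, the genes with an iNKT peak and the 5 with the highest DP score are named. Nearest genes are named for many of the peaks that are described, but not for all. Alternatives were windows of 10 and 100 kb, placement by any overlap, a minimum score of 100, a DP list cut to the length of the iNKT list, an overlap of 50% of each peak, and motif searches in 400 bp or the whole peak. The shorter transcript of Gzmk was added after seeing the data. The functions were tested on simulated data with known answers. Python 3.11.15, numpy 2.4.6, pandas 2.3.3, scipy 1.17.1, pysam 0.24.0, numba 0.67.0 and matplotlib 3.10.9 were used.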

Additional observations from a re-analysis of the deposited data

How the results depend on the processing

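With 1 library per cell type and unknown depth, neither the spread between mice nor a difference between cell types could be tested, and the absence of a listed peak says only that none passed the caller's threshold. Of 37 values under other settings, 21 stayed within 1.5 times the value reported and 16 did not. With 10 kb in place of 50 kb there were 4 DP peaks at 3 of the 8 genes and 1 iNKT peak at 1 gene, where 34.0 and 4.63% of all protein-coding genes had one, and 2 genes of the wider list had an iNKT peak. With 100 kb there were 18 DP peaks at 6 of the 8 genes, where 65.1% of all genes had one. An iNKT peak then lay at 4 of the 8, beside 16.9% of all genes, and 2 peaks were shared. The added iNKT peak is the one upstream of Prf1, and Gzmk then counts the Gzma promoter. With a minimum score of 100 there were 4 DP peaks at 4 of the 8 genes and 1 iNKT peak at 1 gene, beside 42.2 and 4.47% of all genes. At that score 3 genes of the wider list had an iNKT peak, beside the same 4.47%. When the DP list was limited to its 1516 highest peaks, 0 DP peaks, 0 genes with a DP peak and 0 shared peaks were left, beside 10.8% of all genes, since the Gzma peak ranks 1899. CAGGTG was found in 100% of the 9 peaks over their whole length, where 79.0% of all DP peaks and 80.9% of all iNKT peaks held it. In 400 bp at the midpoint the share of the 9 was 33.3%, and in 200 bp 22.2%. The 2 peaks at Gzma overlap and are not separate sites. Placement by any overlap, the stricter overlap and the shorter transcript of Gzmk changed no count at the 8 genes. No paired analysis was possible because each group has 1 sample and no result comes from a test.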
